A study of Mus musculus with 4 samples.

Results

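Cpeb2, Cpeb3 and Cpeb4 encode cytoplasmic polyadenylation element binding (CPEB) proteins, which control the length of poly(A) tails and the translation of mRNAs. These 3 genes are 3 of 16591 genes in a table of RNA sequencing counts from 4 libraries of mouse B-lymphoma cells, 2 from a JQ1-resistant line and 2 from a JQ1-sensitive line. All 3 were among the 11945 genes that passed a filter on low counts. Cpeb1, the remaining member of the family, was not analysed here. The genes were selected on measured values: Cpeb2 for its difference between the lines in an earlier analysis of the same libraries, and Cpeb3 and Cpeb4 as its paralogues. The differences of these genes between the lines are therefore a description, and the call each gene received in the fit of all genes is no evidence about it.

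JQ1 blocks the bromodomains of the BET proteins, readers of acetylated histones that help genes to be transcribed. Eμ-Myc cells carry a Myc transgene driven by the immunoglobulin heavy-chain enhancer Eμ, which is active in B-lineage cells. The groups were the JQ1-resistant Eμ-Myc line (JQ1R) and the JQ1-sensitive Eμ-Myc line (JQ1S), both of C57BL/6 strain, kept as early-passage cultures in plain medium with no drug named before harvest. The comparison addresses which transcripts differ between a line that tolerates the inhibitor and one that does not. There was 1 line of each kind, and what belongs to resistance cannot be told apart from whatever else differs between these lines. The labels do not tell whether replicates were separate cultures, so the p-values reflect no more than the spread of these libraries, which may be technical.

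CPEB proteins bind U-rich cytoplasmic polyadenylation elements (CPEs) in 3′ UTRs through a pair of RNA recognition motifs near the C terminus. In frog oocytes, where the process is best known, the bound mRNA is held with a short tail until kinases modify CPEB1, after which the poly(A) polymerase GLD2 extends the tail and translation begins. CPEB2, CPEB3 and CPEB4 form a branch of the family whose RNA-binding domains resemble each other more than that of CPEB1. They have been studied most in neurons, and CPEB4 also in liver, red-cell precursors and tumours.

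Total counts were 10928239 and 11809635 in the resistant libraries and 13048103 and 10346007 in the sensitive libraries, so that a single count was worth 0.0771 to 0.0972 CPM (counts put on one scale of library size). All 6 B-cell markers examined lay between 102 and 651 CPM in the 4 libraries. Of 15 markers of T cells, myeloid cells, red-cell precursors, fibroblasts and neurons, 3 had a row in the table and none exceeded 1.60 CPM. Of the 11945 genes, 445 passed the test between the lines (edgeR's quasi-likelihood test, adjusted p below 0.05), 263 higher and 182 lower in the resistant line.

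The paralogues are distinct in their annotated sequences. Reads were not examined, so their assignment between paralogues was not tested. Cpeb2 (ENSMUSG00000039782) lies on the plus strand at chr5:43233170-43289724, Cpeb3 (ENSMUSG00000039652) on the minus strand at chr19:37021291-37208601 and Cpeb4 (ENSMUSG00000020300) on the plus strand at chr11:31872211-31935634, in GRCm38 as annotated by GENCODE M21. Their longest coding sequences span 3066, 2148 and 2187 bases, and the part that aligns codes for the C-terminal end of the proteins. Over that part Cpeb2 and Cpeb3 were identical at 745 of 952 bases (78.3%). Cpeb2 and Cpeb4 were identical at 814 of 1035 bases (78.7%), and Cpeb3 and Cpeb4 at 732 of 952 bases (76.9%). The longest runs of bases shared by the whole coding sequences of these pairs were 26, 29 and 20 bases, in the same order. No stretch of 50 bases in the transcripts was shared between paralogues. The 60-base coding stretch of Cpeb2 with the fewest mismatches to both paralogues shows the genes where they are most alike. Even there they can be told apart, and the stretch is not typical of the aligned part. It lies near the 3′ end of each coding sequence. It covers bases 2902 to 2961 of Cpeb2, 1984 to 2043 of Cpeb3 and 2023 to 2082 of Cpeb4, counted from the first base of the start codon. Capitals mark the positions at which the 3 genes are not all alike, and the sequences run 5′ to 3′ as in the GENCODE M21 transcripts.
Cpeb2: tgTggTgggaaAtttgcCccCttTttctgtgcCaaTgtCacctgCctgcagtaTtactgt
Cpeb3: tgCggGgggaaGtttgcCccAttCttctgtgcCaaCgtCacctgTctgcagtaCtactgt
Cpeb4: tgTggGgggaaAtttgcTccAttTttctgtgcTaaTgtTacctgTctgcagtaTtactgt
In this stretch Cpeb3 differed from Cpeb2 at 8 bases and Cpeb4 differed from Cpeb2 at 6 bases.

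Overlap with other annotated genes was small. On the opposite strand, Gm7854 covered 1.75% of the exonic bases of Cpeb2 and shared 89 of its 7894 stretches of 50 bases. Gm7854 was not analysed here. The opposite-strand gene A330032B11Rik covered 1.57% of the exonic bases of Cpeb3 and had 12 and 11 counts in the resistant libraries and 12 and 8 counts in the sensitive libraries, counts close to those of Cpeb3 itself. The strand setting of the counting is not given in the sources used here, so reads from the overlapping part of Cpeb3 and this gene cannot be told apart. Cpeb4 overlapped no other gene and shared no stretch of 50 bases.

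Cpeb2 was expressed at a higher level in the resistant line. It had 432 and 494 counts in the resistant libraries and 130 and 120 counts in the sensitive libraries. Scaled to library size, this was 39.5 and 41.6 CPM in the resistant line, against 10.0 and 11.7 CPM in the sensitive line. Both resistant libraries lay above both sensitive libraries, which the choice of Cpeb2 for this difference made likely. With 2 libraries in each line, genes that were not called also separated in this way, among them Sympk. The exact Poisson 95% intervals, which cover counting error only, ran no lower than 35.9 CPM in the resistant libraries and no higher than 13.9 CPM in the sensitive libraries. The mean was 40.6 ± 1.44 CPM in resistant cells and 10.8 ± 1.16 CPM in sensitive cells (SD, n = 2 each). The fitted log2 change was 1.91 ± 0.11 (SE), a 3.77-fold higher level. In bulk RNA a larger number of expressing cells and more RNA per cell cannot be told apart. CPEB2 has been reported to bind the elongation factor eEF2 and to slow translation of HIF1A mRNA.

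**Figure D1:**
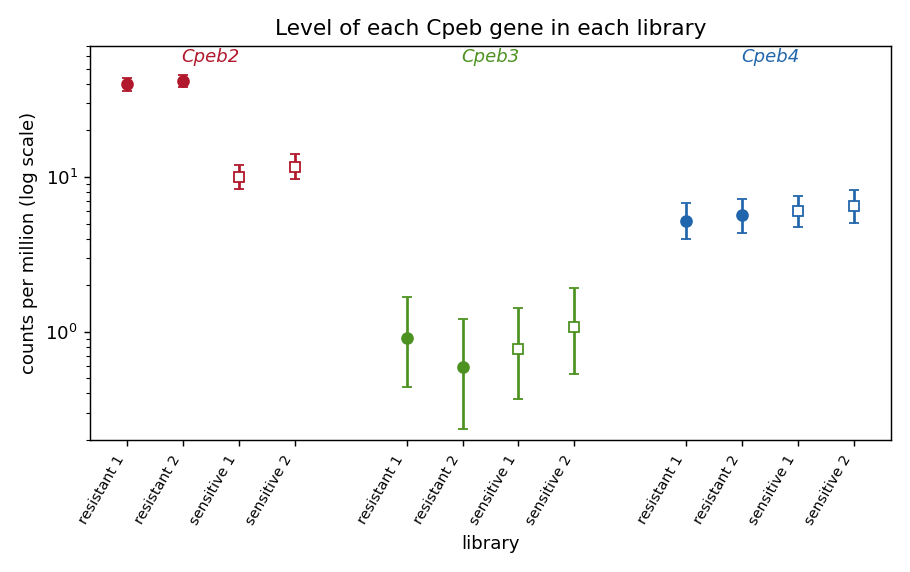
Levels of Cpeb2, Cpeb3 and Cpeb4 in CPM on a log axis, with the 2 JQ1-resistant libraries (filled circles) left of the 2 JQ1-sensitive libraries (open squares) for each gene. Each symbol is a library and its bar the exact Poisson 95% interval: Cpeb2 averages 40.6 CPM in resistant and 10.8 CPM in sensitive cells, while the intervals of Cpeb3 and Cpeb4 overlap between the lines.

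Cpeb3, studied in mouse hippocampus as a regulator of synaptic protein synthesis, was barely detected. It had 10 and 7 counts in the resistant libraries and 10 and 11 counts in the sensitive libraries. These counts equal 0.915 and 0.589 CPM in the resistant line, against 0.771 and 1.07 CPM in the sensitive line. The groups overlapped, with the higher resistant library lying between the sensitive libraries. The log2 change was -0.27 ± 0.46 (SE), on means of 0.752 ± 0.231 CPM in resistant cells and 0.920 ± 0.211 CPM in sensitive cells (SD, n = 2 each). A count of 7 has an exact Poisson 95% interval of 2.81 to 14.4, so a moderate difference in Cpeb3 was not detectable at this depth.

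Cpeb4, which in mouse liver supports translation under endoplasmic reticulum stress, was expressed at a low level in both lines. It had 57 and 67 counts in the resistant libraries and 78 and 67 counts in the sensitive libraries. Scaled to library size, the level was 5.22 and 5.64 CPM in the resistant line, against 6.01 and 6.51 CPM in the sensitive line. The scaled values did not overlap, the resistant libraries being the lower, but the Poisson intervals did: the lowest of them was 3.95 to 6.76 CPM for resistant replicate 1 and the highest 5.05 to 8.27 CPM for sensitive replicate 2. Means were 5.43 ± 0.299 CPM in resistant cells and 6.26 ± 0.353 CPM in sensitive cells (SD, n = 2 each), a log2 change of -0.20 ± 0.17 (SE).

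Set against its paralogues, the log2 change of Cpeb2 was 2.19 above that of Cpeb3 and 2.11 above that of Cpeb4. The fold change of Cpeb2 was thus 4.55 times that of Cpeb3 and 4.32 times that of Cpeb4. Cpeb3 and Cpeb4 differed from each other by -0.08 on the log2 scale, Cpeb3 minus Cpeb4. By the call used for all genes, Cpeb2 was higher in the resistant line and Cpeb3 and Cpeb4 were not called, so that 1 of 3 members was called. Over all tested genes 3.73% were called, 2.20% higher and 1.52% lower. Because the genes were chosen by this same contrast, nothing is read from their count or from the rank of Cpeb2 given next. Among all tested genes, 36 had a larger log2 change than Cpeb2, and the central 95% of genes lay between -0.51 and 0.67. The values of Cpeb3 and Cpeb4 fell inside that range, and the median of all genes was 0.00.

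**Figure D2:**
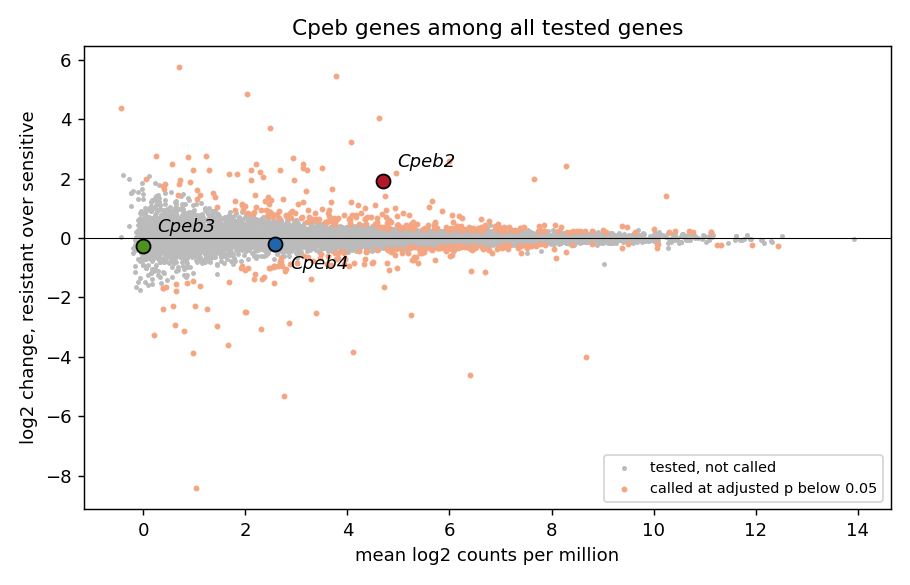
Log2 change between the JQ1-resistant and JQ1-sensitive lines (vertical axis, resistant over sensitive) against mean expression in log2 CPM (horizontal axis) for the 11945 tested genes, with called genes in orange and the others in grey. Cpeb2 stands at 1.91, above all but 36 genes, a place that its selection for this difference favours. Cpeb3 at -0.27 and Cpeb4 at -0.20 lie between -0.51 and 0.67, the range of the central 95% of genes.

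The make-up of the family differed between the lines, as follows from the rise for which Cpeb2 was chosen. The shares, the summed level and the standing of Cpeb2 given below restate that rise and are no further evidence. Levels per length, in CPM per kilobase of annotated exon, allow the genes to be compared with each other (7816, 7414 and 6369 exonic bases for Cpeb2, Cpeb3 and Cpeb4). In both lines the order was Cpeb2, then Cpeb4, then Cpeb3, and neighbours in that order were apart by more than their spread in each line. On this scale the level of Cpeb2 was 5.06 and 5.32 CPM per kilobase in the resistant libraries and 1.28 and 1.49 CPM per kilobase in the sensitive libraries. The level of Cpeb4 was 0.852 ± 0.0469 CPM per kilobase in resistant cells and 0.983 ± 0.0555 CPM per kilobase in sensitive cells (SD, n = 2 each). The level of Cpeb3 was 0.101 ± 0.0311 CPM per kilobase in resistant cells and 0.124 ± 0.0284 CPM per kilobase in sensitive cells. Cpeb2 therefore exceeded Cpeb4 by a wide margin in resistant cells and by a small one in sensitive cells.

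Cpeb2 made up 84.5 ± 0.249% of the summed per-length level of the 3 genes in resistant cells and 55.6 ± 0.777% in sensitive cells (SD, n = 2 each). Cpeb4 made up 13.9 ± 0.311% in resistant cells and 39.5 ± 1.46% in sensitive cells. This share depends on the level of Cpeb2, and the log2 change of Cpeb4 itself was -0.20 ± 0.17 (SE). Cpeb3 made up 1.66 ± 0.560% in resistant cells and 4.94 ± 0.680% in sensitive cells. The summed level was 6.14 ± 0.200 CPM per kilobase in resistant cells and 2.49 ± 0.233 CPM per kilobase in sensitive cells, and Cpeb2 was the gene of the 3 with the higher mean in resistant cells. Measured against the other genes of the same cells, 41.9% of 11861 genes had a lower per-length level than Cpeb2 in the resistant line and 18.4% in the sensitive line. For Cpeb4 these shares were 11.8% in the resistant line and 13.9% in the sensitive line, and for Cpeb3 0.371% in the resistant line and 0.717% in the sensitive line. All 3 genes lay below the median per-length level of all genes, which was 7.17 CPM per kilobase in resistant cells and 7.10 CPM per kilobase in sensitive cells.

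**Figure D3:**
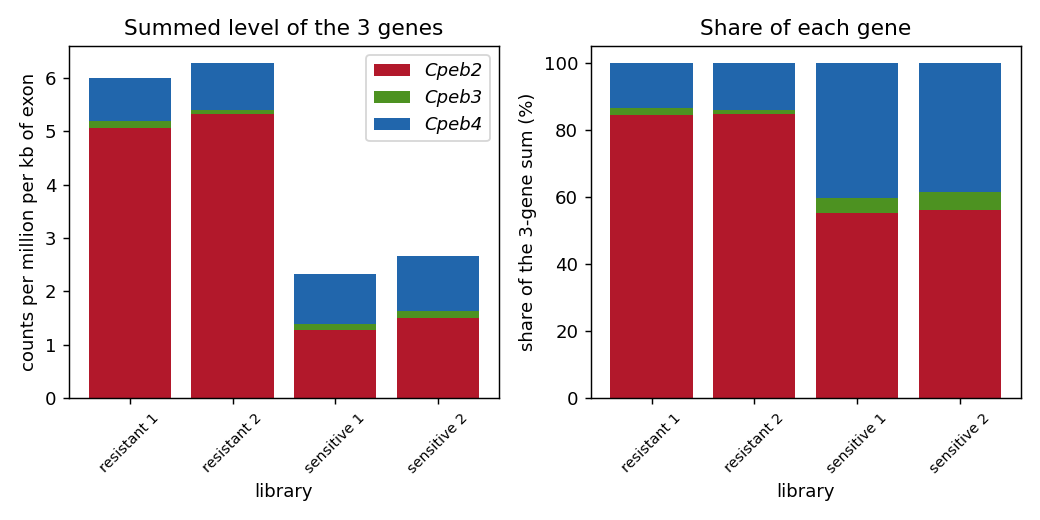
Stacked bars for each library, the JQ1-resistant left of the JQ1-sensitive, of the per-length levels of the 3 genes in CPM per kilobase of exon (left panel) and of their shares of the summed level in percent (right panel). Cpeb2 takes on average 84.5% of the sum in resistant cells and 55.6% in sensitive cells.

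CPEB mRNAs themselves carry the motif that CPEB proteins bind. The CPE letters searched were UUUUAU and UUUUAAU on the sense strand of the longest annotated 3′ UTR, and these motifs cannot start at the same base. The 3′ UTR of Cpeb2, 3778 bases long, held 24 such motifs, that of Cpeb4, 4102 bases long, held 17, and that of Cpeb3, 3569 bases long, held 6. Among 505 annotated 3′ UTRs of 3500 to 4200 bases in the table, 94.9% held at least 1 and the median was 4. Cpeb2 had more than 99.8% of these 3′ UTRs, Cpeb4 more than 99.6% and Cpeb3 more than 62.8%. In each gene the sites shown are the motifs closest to the 3′ end, which lay 159 bases from the end in Cpeb2, 233 in Cpeb3 and 217 in Cpeb4. Capitals mark the motif, with T written for U.
Cpeb2: taatttagtttaTTTTATtgttatcttcca
Cpeb3: ggaataaattaaTTTTATgatgctaattct
Cpeb4: gggtaattcattTTTTATtaaagtcatttt
All 3 transcripts had the polyadenylation signal AAUAAA in their last 40 bases, and none held a CPE in the 100 bases before it. A CPE at that distance, ending before the AAUAAA, stood in 11.2% of the 11500 annotated 3′ UTRs examined. These matches are letters in an annotation and are not measured binding sites. No promoter sequence of Cpeb2 was found in the RefSeq table used.

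Genes whose 3′ UTRs hold a CPE close to the polyadenylation signal were described as a class. Such sites are best known from CPEB1 in frog oocytes. Whether CPEB2, CPEB3 or CPEB4 act through them in these cells was not tested. Of 9621 tested genes with an annotated 3′ UTR of at least 100 bases, 1109 held a CPE within 100 bases before the AAUAAA. The motif had to end before the AAUAAA, so a CPE that ran into the signal was not counted. Of these, 25 were higher and 26 lower in the resistant line, or 4.60%, and their median log2 change was -0.0171. Among 4878 genes with the AAUAAA and no CPE wholly inside that window, 203 were called (4.16%), and this set can include genes with such an overlapping CPE. Over all 9621 genes 3.72% were called and the median was -0.00123. Of the 180 genes with at least 2 such motifs, 6 were called (3.33%). RNA levels do not report tail length or translation.

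The genes of the machinery with which CPEB proteins work are described next. Over 8 lists of that machinery and its targets, 97 genes were tested and 2 were called, 1 in each direction, or 2.06%, near the 3.73% of all tested genes. Their median log2 change was -0.03, against 0.00 over all tested genes, with a range from -0.37 for Igf2bp3 (an RNA-binding protein of the IGF2BP family) to 0.41 for Camk2a. Neither of these extremes passed the test. At an unadjusted p below 0.05, 20 of the 97 genes passed, where 16.9% of all tested genes did. These shares of all tested genes, 3.73% called and 16.9% at the unadjusted threshold, also stand beside the counts of each list below. DESeq2 called 0 of the 97 and 1.74% of all tested genes, and limma-voom called 2 of the 97 and 3.69% of all. Leaving out 1 library gave counts of 0 to 14 list genes: it was 0 without either resistant replicate (2.60% of all genes without replicate 1, 2.25% without replicate 2), 14 without sensitive replicate 1 (11.7% of all) and 11 without sensitive replicate 2 (10.1% of all).

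**Figure D4:**
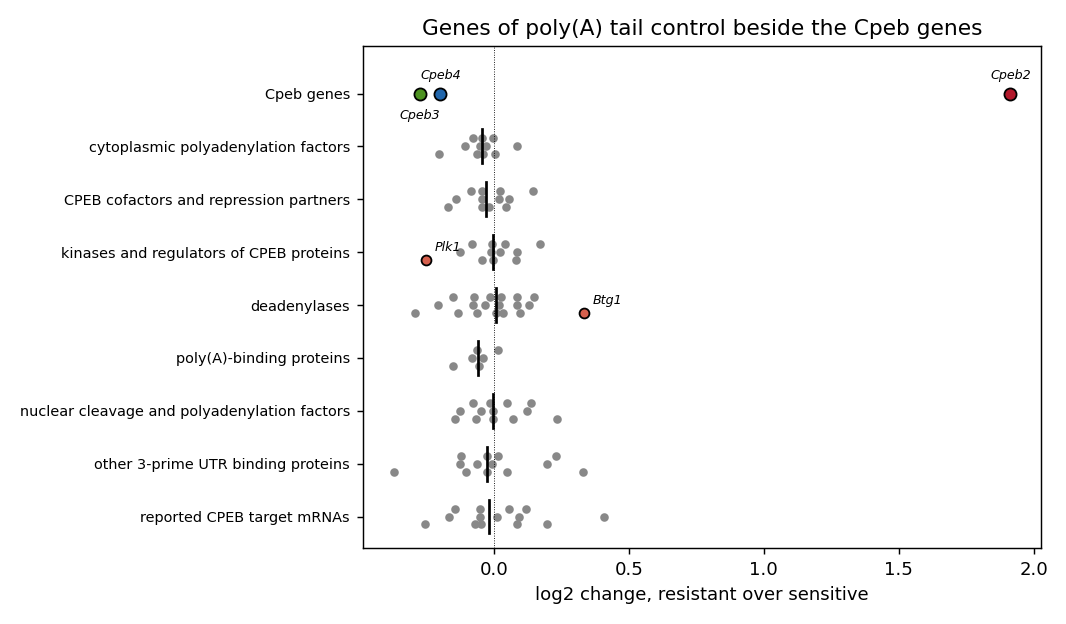
Log2 change (resistant over sensitive, horizontal axis) of each tested gene in 8 lists of polyadenylation, deadenylation and 3′ UTR binding factors, with the median of each list as a vertical mark and the 3 Cpeb genes in the top row. Among the list genes, Btg1 at 0.33 and Plk1 at -0.25 were called (orange) and the rest were not (grey), and list medians lie between -0.06 and 0.01.

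Of 11 tested factors of the cytoplasmic polyadenylation complex, 0 were called by edgeR, by DESeq2 or by limma-voom, 1 had an unadjusted p below 0.05 and the median was -0.04. Without sensitive replicate 1 the count was 1. Cpsf2, a subunit of the factor that recognises AAUAAA, averaged 267 ± 7.65 CPM in resistant cells and 281 ± 3.97 CPM in sensitive cells (SD, n = 2 each; log2 change -0.08, edgeR adjusted p = 0.516). Sympk encodes symplekin, the scaffold that holds the complex together. It averaged 267 CPM in resistant cells and 275 CPM in sensitive cells (log2 change -0.04, edgeR adjusted p = 0.739). Tent2, which encodes GLD2, was looked up after its values were seen and averaged 64.1 CPM in resistant cells and 63.8 CPM in sensitive cells (log2 change 0.01, edgeR adjusted p = 0.981).

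Of 12 tested cofactors and repression partners, 0 were called by edgeR, DESeq2 or limma-voom, and 1 had an unadjusted p below 0.05. The count was 1 without sensitive replicate 2. Eef2, the elongation factor that CPEB2 has been reported to bind, averaged 5944 CPM in resistant cells and 5713 CPM in sensitive cells (log2 change 0.06, edgeR adjusted p = 0.615). Ddx6, an RNA helicase of repressed messenger particles, averaged 283 CPM in resistant cells and 279 CPM in sensitive cells (log2 change 0.02, edgeR adjusted p = 0.891). The list's median was -0.03.

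Among 12 tested kinases and other regulators of CPEB proteins, 1 was lower in the resistant line and 11 were not called, with a median of -0.00429. The share called was 8.33%, against 3.73% of all tested genes. Plk1, the mitotic kinase that marks CPEB1 for destruction in frog oocytes, had 152 and 148 CPM in the resistant libraries and 175 and 183 CPM in the sensitive libraries. Both resistant libraries were lower, with a log2 change of -0.25 ± 0.06 (SE, edgeR adjusted p = 0.0231). The call was lost without resistant replicate 1 (adjusted p = 0.165), without resistant replicate 2 (adjusted p = 0.348) and with DESeq2 (adjusted p = 0.0733), in a range of 1.24e-05 to 0.348 over 11 alternatives. Its direction was the same in all of them, and without sensitive replicate 2 the list had 2 calls.

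Among 19 tested deadenylases and their adaptors, 1 was higher and 18 were not called, with a median of 0.01. The share called was 5.26%, against 3.73% of all tested genes. Btg1, an antiproliferative adaptor of the CCR4-NOT complex that is often mutated in B-cell lymphoma, had 73.3 and 71.6 CPM in the resistant libraries and 59.6 and 55.2 CPM in the sensitive libraries. The log2 change was 0.33 ± 0.07 (SE, edgeR adjusted p = 0.0124). Btg1 was no longer called without resistant replicate 1 (adjusted p = 0.130), without resistant replicate 2 (adjusted p = 0.0735) or with DESeq2 (adjusted p = 0.0949), in a range of 1.50e-05 to 0.130 over 11 alternatives. Leaving out either sensitive replicate gave 2 calls in this list.

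Of 6 tested poly(A)-binding proteins and their partners, 0 were called by edgeR, DESeq2 or limma-voom and 1 had an unadjusted p below 0.05. Pabpc1, the main cytoplasmic poly(A)-binding protein, averaged 2983 CPM in resistant cells and 3156 CPM in sensitive cells (log2 change -0.08, edgeR adjusted p = 0.542). Paip2, an inhibitor of that protein, averaged 199 CPM in resistant cells and 207 CPM in sensitive cells (log2 change -0.06, edgeR adjusted p = 0.679). The log2 change of Pabpc1 was -0.18, and called, without sensitive replicate 1, when 2 genes of the list were called, but 0.02, and not called, without sensitive replicate 2. No direction is given for it.

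Of 13 tested nuclear cleavage and polyadenylation factors, 0 were called by edgeR, DESeq2 or limma-voom and 2 had an unadjusted p below 0.05. Papola, the nuclear poly(A) polymerase, averaged 388 CPM in resistant cells and 407 CPM in sensitive cells (log2 change -0.07, edgeR adjusted p = 0.591). Cpsf6, a subunit of the factor that sets the choice among polyadenylation sites, averaged 286 CPM in resistant cells and 301 CPM in sensitive cells (log2 change -0.08, edgeR adjusted p = 0.547). This list had 2 calls without sensitive replicate 1.

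Of 13 other tested proteins that bind 3′ UTRs, 0 were called by edgeR, DESeq2 or limma-voom, where edgeR called 3.73% of all tested genes. At an unadjusted p below 0.05, 5 of the 13 passed, against 16.9% of all tested genes. With the replicate block, edgeR called 2 of the list and 4.98% of all tested genes. Ybx1, an abundant mRNA packaging protein, averaged 1427 CPM in resistant cells and 1554 CPM in sensitive cells (log2 change -0.12, edgeR adjusted p = 0.292). Hnrnpd, which binds AU-rich elements, averaged 464 CPM in resistant cells and 485 CPM in sensitive cells (log2 change -0.06, edgeR adjusted p = 0.620). For Ybx1 the log2 change was -0.19, and called, without sensitive replicate 1, and -0.05, not called, without sensitive replicate 2. The list had 3 calls when either sensitive replicate was left out.

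Of 14 tested mRNAs reported elsewhere as CPEB targets, 0 were called by edgeR, DESeq2 or limma-voom, and the median was -0.02. At an unadjusted p below 0.05, 5 of the 14 passed, against 16.9% of all tested genes. Myc, whose mRNA is a CPEB1 target in mouse fibroblasts, averaged 1411 CPM in resistant cells and 1558 CPM in sensitive cells (log2 change -0.14, edgeR adjusted p = 0.250). Reads of the transgene and of the resident Myc gene cannot be told apart in these counts. For Myc the log2 change was -0.24, and called, without sensitive replicate 1, and -0.04, not called, without sensitive replicate 2. Leaving out these replicates gave 3 and 4 calls in the list, in that order. Hif1a, the reported CPEB2 target, was looked up after its values were seen and averaged 111 CPM in resistant cells and 102 CPM in sensitive cells (log2 change 0.12 ± 0.07 SE, edgeR adjusted p = 0.383).

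The chromosomal surroundings of the 3 genes were compared next, taking genes whose start lay within 1000 kb of the start of a member. Start here means the lowest coordinate of a gene on either strand. For Cpeb3, on the minus strand, that is its 3′ end. All 5 tested neighbours of Cpeb2 lay on its downstream side, at 511 kb or more. Of these 5, 2 were higher and 1 was lower in the resistant line, against 3.73% called among all tested genes. At an unadjusted p below 0.05, 4 of the 5 passed, against 16.9% of all tested genes. Fbxl5, which encodes an iron-sensing ubiquitin ligase subunit, lay 511 kb away and had 130 and 141 CPM in the resistant libraries and 108 and 104 CPM in the sensitive libraries (log2 change 0.35 ± 0.06 SE, edgeR adjusted p = 0.00362). Tapt1, a transmembrane protein gene 942 kb away, had 114 and 118 CPM in the resistant libraries and 94.6 and 88.9 CPM in the sensitive libraries (log2 change 0.33 ± 0.06 SE, edgeR adjusted p = 0.00590). Between them, Cd38 went in the other direction.

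Cd38, a surface enzyme that consumes NAD, had 71.4 and 77.4 CPM in the resistant libraries and 101 and 94.3 CPM in the sensitive libraries (log2 change -0.40 ± 0.07 SE, edgeR adjusted p = 0.00263). Its relative Bst1, 586 kb from Cpeb2, had 7.05 and 7.07 CPM in the resistant libraries and 6.55 and 7.68 CPM in the sensitive libraries, and was not called. The predicted gene Gm16015, with 11 and 14 counts in the resistant libraries and 33 and 25 counts in the sensitive libraries, was not called (log2 change -1.18, edgeR adjusted p = 0.0521). It was called in 3 of 11 alternatives, among them no filter (adjusted p = 0.04999) and without sensitive replicate 2 (0.0281), in a range of 0.0222 to 0.598 with DESeq2 the highest. Fbxl5 and Tapt1 were not called without resistant replicate 2 (adjusted p = 0.143 and 0.118) and Cd38 was not called without resistant replicate 1 (adjusted p = 0.0613). Each of the 3 genes was called in 10 of 11 alternatives, and these were their highest adjusted p-values, the lowest being 1.38e-07 for Fbxl5, 4.52e-07 for Tapt1 and 3.12e-10 for Cd38. The log2 change of Cpeb2 was larger than that of every tested neighbour within this distance. Because Cpeb2 was chosen for its rise, nothing is read from this order.

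Around Cpeb3, 0 of 12 tested neighbours were called by edgeR, DESeq2 or limma-voom, and 1 had an unadjusted p below 0.05. The nearest by lowest coordinate, and so on the side of the 3′ end of Cpeb3, was Btaf1, a regulator of the TATA-binding protein. It averaged 124 CPM in resistant cells and 142 CPM in sensitive cells (log2 change -0.20, edgeR adjusted p = 0.119). March5, whose lowest coordinate lay 186 kb above that of Cpeb3, averaged 65.5 CPM in resistant cells and 66.9 CPM in sensitive cells (log2 change -0.03, edgeR adjusted p = 0.867). Without sensitive replicate 2 Btaf1 was called, at a log2 change of -0.25 (adjusted p = 0.000510), in a range of 0.000510 to 0.641 over 11 alternatives. Around Cpeb4, 1 of 14 tested neighbours was called by edgeR and by limma-voom and 0 by DESeq2, and 3 had an unadjusted p below 0.05. Over all tested genes, edgeR called 3.73% and 16.9% had an unadjusted p below 0.05. Nsg2, a neuronal vesicle protein gene 128 kb downstream, had 8 and 2 counts in the resistant libraries and 26 and 25 counts in the sensitive libraries. The resistant libraries were lower, with a log2 change of -2.29 ± 0.47 (SE, edgeR adjusted p = 0.00957). The size of this change rests on the resistant libraries: without replicate 2, which had 2 counts, the log2 change was -1.57 (adjusted p = 0.0883), and without replicate 1 it was -3.63 (adjusted p = 4.39e-05). DESeq2 gave an adjusted p of 0.0930, in a range of 4.39e-05 to 0.0930 over 11 alternatives.

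**Figure D5:**
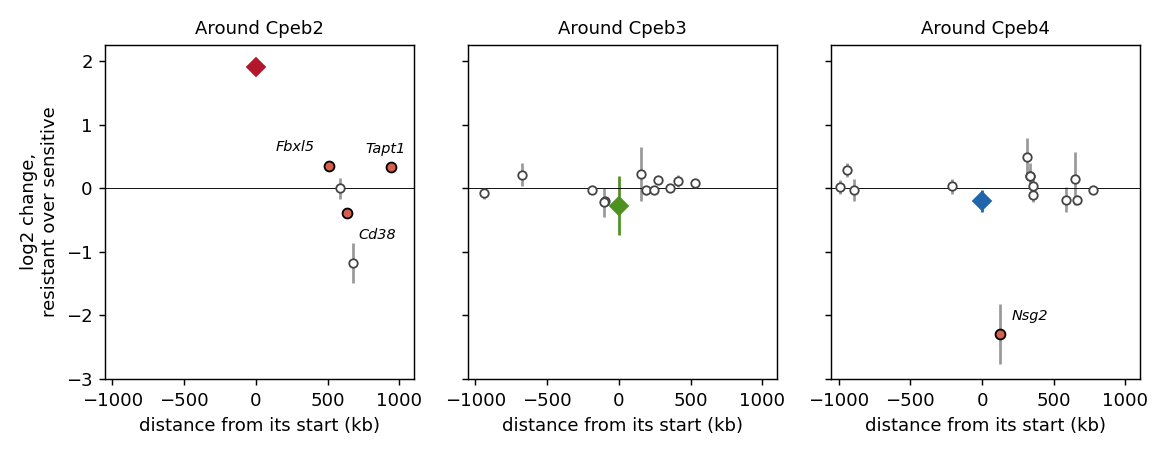
Log2 change (resistant over sensitive) of tested genes within 1000 kb of Cpeb2, Cpeb3 and Cpeb4, plotted against the distance of their start from the start of the member in kb. Start is the lowest coordinate of a gene on either strand. Bars are SE, diamonds are the members and filled circles are called neighbours: around Cpeb2, Fbxl5 (0.35) and Tapt1 (0.33) were higher and Cd38 (-0.40) lower, and around Cpeb4, Nsg2 was lower (-2.29).

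The genes whose pattern over the 4 libraries was most like that of each member were found by the root mean square difference of log2 CPM after centring each gene on its own mean. For Cpeb2 the closest were Platr10 (0.0632), Rbm34 (0.0813), H2-Eb1 (0.0828), Daam1 (0.0895) and Platr27 (0.109). These genes share a difference of similar size between the lines, which the measure was built to find, and this is a description over 4 libraries. Platr10, a noncoding RNA, had 6.77 and 6.48 CPM in the resistant libraries and 1.54 and 1.94 CPM in the sensitive libraries. Rbm34, an RNA-binding protein gene, had 315 and 331 CPM in the resistant libraries and 81.8 and 82.5 CPM in the sensitive libraries. Daam1, a formin that assembles actin, had 12.4 and 11.8 CPM in the resistant libraries and 2.70 and 3.60 CPM in the sensitive libraries. H2-Eb1, an MHC class II chain, rested on 12 and 12 counts in the resistant libraries and 3 and 3 counts in the sensitive libraries and was not called (edgeR adjusted p = 0.0614). H2-Eb1 was called in 3 of 11 alternatives, among them limma-voom (adjusted p = 0.0402) and without sensitive replicate 2 (0.0449), in a range of 0.0402 to 0.625 with DESeq2 the highest.

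For Cpeb4 the closest patterns were those of Alkbh7, Cdc14a and Zbtb37, with differences of 0.00788 to 0.0126. Cdc14a, a dual-specificity phosphatase gene, had 13.4 and 14.3 CPM in the resistant libraries and 15.5 and 16.5 CPM in the sensitive libraries. For Cpeb3 they were Hs3st3b1, Smtn and Il12a, with differences of 0.0228 to 0.0515. Cpeb3 itself had counts of 7 to 11 with overlapping Poisson intervals, so the pattern matched is not beyond counting error. Hs3st3b1, a heparan sulfate sulfotransferase gene, had 3.39 and 2.19 CPM in the resistant libraries and 2.93 and 3.89 CPM in the sensitive libraries.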

How the data were processed

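RNA was sequenced in 4 libraries, 2 of a JQ1-resistant and 2 of a JQ1-sensitive mouse line, made with a TruSeq RNA kit, per the labels' protocols. The values are the authors' deposited counts of reads per gene, with no normalization. TopHat with Bowtie2, HTSeq, cutadapt 1.7, FastQC and limma are listed, with GRCm38 and mm10, per the submitters' processing notes. The sources used here give neither the strand setting nor the order of steps. Summed over the libraries, no listed gene had under 4 counts.

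Groups came from the titles. The fit was edgeR's quasi-likelihood test (version 4.0.16, R 4.3.3) with TMM factors, after filterByExpr at a count minimum of 10 and a total minimum of 15, with p-values adjusted by the Benjamini-Hochberg method over 11945 genes and calls at an adjusted p below 0.05. The biological coefficient of variation was 4.38%. CPM used library sizes times TMM factors, and log2 CPM for pattern likeness added 0.5 counts. Intervals are exact Poisson at 95%. Symbols, positions, lengths and transcripts came from GENCODE M21, which matched 16407 of 16591 identifiers, and were read with Python 3.11.15 and Biopython 1.88. The edgeR fit was tested on simulated counts, and the other steps were not.

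The members, lists and tests were chosen with earlier results of these data known. Besides the members, the text names called list genes up to 4 per list by smallest p, or the 2 with the highest mean CPM where none was called, the neighbours within 1000 kb (at most 6 for each member), and the closest patterns (5 for Cpeb2 and 3 for each paralogue, without predicted and immunoglobulin genes). Nsg2 falls under the neighbour rule, and Tent2, Hif1a, Igf2bp3 and Camk2a were named after their values were seen. Some genes that the rule names are given only as part of a count. Alternatives were DESeq2 1.42.0, limma-voom (limma 3.58.1), DESeq2's size factors in edgeR, library size only, upper-quartile factors, no filter, a replicate block, leaving out each library, and other gene lengths.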

Additional observations from a re-analysis of the deposited data

How the results depend on the processing

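With 2 libraries in each line, the number of calls depends on single libraries more than on the scaling. Against 445 called genes, DESeq2 called 208, leaving out 1 library gave 269 (without resistant replicate 2) to 1400 (without sensitive replicate 1), and without sensitive replicate 2 there were 1205. Over the pathway lists, against 2 called genes, DESeq2 gave 0, the replicate block gave 4, and leaving out 1 library gave 0 (without either resistant replicate) to 14 (without sensitive replicate 1), with 11 without sensitive replicate 2. The cause was not tested. A library left alone in its group is assumed to vary like the other group. The log2 change of Cpeb2 ranged from 1.80 to 2.02 without single libraries and from 1.91 to 1.93 under the other 7 alternatives. Its direction was the same in all 11. Cpeb2 was chosen for its rise in these same libraries, so this agreement is no support for the rise. Cpeb4 ranged from -0.26 to -0.15 without single libraries. Cpeb3 ranged from -0.61 (without resistant replicate 1) to 0.02 (without resistant replicate 2), so its direction rests on counts of 7 to 11.

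With the longest transcript as the length, the Cpeb2 share was 85.3% in resistant cells and 57.2% in sensitive cells. With coding length it was 82.4% in resistant cells and 51.8% in sensitive cells. The order of the lines follows from the rise of Cpeb2 whatever the lengths, so only the size of the shares is informative here. Replicate numbers are shared between the lines, and deviations of same-numbered libraries from their group means had a correlation of -0.0165. With 2 libraries per line this value cannot tell whether same-numbered libraries shared a batch or a culture date. With the replicate block, 595 genes were called, 2 of them among the other 3′ UTR binding proteins, and Gm16015 (adjusted p = 0.0222) and H2-Eb1 (adjusted p = 0.0422) passed the edgeR threshold. No result changed direction past the threshold in the alternatives run.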
